A study of Homo sapiens with 16 samples.

Results

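A set of 10 genes of the NF-kB pathway were followed through the BJ fibroblast model of malignant transformation. They are the subunits NFKB1, NFKB2, RELA and RELB, the inhibitor genes NFKBIA and NFKBIZ, and the feedback and target genes TNFAIP3, BIRC3, ICAM1 and TRAF1. The members were chosen by name with earlier results of these data known, and the TPM (a level per transcript length, scaled to a fixed library sum) of all transcripts of a gene were summed. All 10 were found among the 19356 protein-coding genes of the table, and all 10 passed the filter on low values (a mean of at least 1 TPM in a compared group) in each comparison. RELB and TRAF1 passed it in some comparisons through only the group where they were higher, as RELB did at the 2 oxygen levels of immortalized cells.

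The model holds 4 isogenic stages of the human fibroblast line BJ: primary cells (Primary BJ), immortalized cells (BJ hTERT+, carrying telomerase), transformed cells (BJ hTERT+ SV40+, which add the SV40 Large-T oncogene) and metastasizing cells (BJ hTERT+ SV40+ Ras-G12V, which add a mutated H-Ras). Each stage was grown for 6 passages in the same serum-containing medium, either at atmospheric oxygen or at 3% oxygen, the latter called moderate hypoxia by the study. RNA was sequenced from duplicate plates, so that 8 groups of 2 libraries (a and b) gave 16 libraries. In bulk RNA, a smaller share of cells expressing a gene and less RNA per cell cannot be told apart. Each stage is 1 cell line, so the added gene and any other difference between the lines cannot be told apart, and the p-values measure the spread between parallel plates.

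NF-kB is a family of dimeric transcription factors that inhibitor proteins of the IkB family hold in the cytoplasm of resting cells. Cytokines such as TNF and interleukin 1 activate kinases that lead to degradation of the inhibitor, after which the dimers enter the nucleus and bind kappaB sites in promoters and enhancers. Several of their targets are brakes on the same pathway, and in fibroblasts NF-kB is known for driving cytokines, chemokines and adhesion molecules. The measurements here are RNA levels, which do not report nuclear entry or DNA binding.

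The number of reads behind a TPM value is not known, since the values of each library add up to 1000000. All 10 fibroblast markers reached 1 TPM, while 2 of 6 epithelial markers did so in any library and their summed level was 0.30 to 3.98 TPM. The 6 leukocyte markers, of which CD14, CD68 and PTPRC reached 1 TPM, summed to 43.4 to 165.4 TPM per library. The 5 endothelial markers measured, of which EMCN and TIE1 reached it, summed to 1.03 to 21.0 TPM. At atmospheric oxygen TERT was listed at 0 in each primary library, and it had means of 33.5 to 153.9 TPM in the later stages. HRAS, whose gene sum does not separate the mutated from the normal allele, had a mean of 86.3 TPM ± 11.7 (SD, n = 2) in metastasizing and 109.4 TPM ± 14.7 (SD, n = 2) in transformed cells at atmospheric oxygen, so its level is no check of that label. The metastasizing libraries at 3% oxygen stood apart from each other, with 11.0% of genes more than 2-fold apart between the plates against 1.83% to 4.08% in the other 7 groups, and HRAS at 143 and 772 TPM. For the oxygen responses named below in metastasizing cells, the values without replicate a and without replicate b at 3% oxygen are given beside them.

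Promoter sequences are shown because negative feedback in this pathway is written in kappaB sites close to the start of the inhibitor genes. Windows of 300 bases were taken from RefSeq (GRCh38.p14) for 9 of the 10 genes, 16 windows in all, and placed on GRCh37 by exact match. The kappaB consensus (GGG, purine, any, any, pyrimidine, pyrimidine, CC) was searched on both strands, and capitals mark its exact matches. For 5 members the bases before the gene's first annotated base are shown, 5′ to 3′ on the strand of the gene.
NFKB1, chr4:103422266-103422486, plus strand: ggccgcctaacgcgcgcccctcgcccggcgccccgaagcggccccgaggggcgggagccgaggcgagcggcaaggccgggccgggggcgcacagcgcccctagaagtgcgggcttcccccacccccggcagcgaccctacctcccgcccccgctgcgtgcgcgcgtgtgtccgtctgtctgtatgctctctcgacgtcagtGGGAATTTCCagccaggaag
NFKBIA, chr14:35873956-35874205, minus strand: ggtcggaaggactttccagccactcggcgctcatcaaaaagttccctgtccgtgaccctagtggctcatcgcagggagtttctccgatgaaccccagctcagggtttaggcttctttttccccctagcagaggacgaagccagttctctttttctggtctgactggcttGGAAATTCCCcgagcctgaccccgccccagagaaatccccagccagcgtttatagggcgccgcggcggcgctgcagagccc
TNFAIP3, chr6:138188146-138188350, plus strand: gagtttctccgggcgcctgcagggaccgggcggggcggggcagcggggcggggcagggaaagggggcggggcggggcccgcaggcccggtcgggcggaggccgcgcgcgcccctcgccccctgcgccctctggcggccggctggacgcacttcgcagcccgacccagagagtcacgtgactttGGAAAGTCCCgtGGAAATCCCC
BIRC3, chr11:102187965-102188214, plus strand: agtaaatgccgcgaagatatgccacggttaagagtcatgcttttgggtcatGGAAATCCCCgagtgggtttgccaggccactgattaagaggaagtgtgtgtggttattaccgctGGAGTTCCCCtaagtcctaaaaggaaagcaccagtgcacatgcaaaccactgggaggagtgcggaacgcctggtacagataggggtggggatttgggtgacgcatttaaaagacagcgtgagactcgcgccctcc
ICAM1, chr19:10381546-10381768, plus strand: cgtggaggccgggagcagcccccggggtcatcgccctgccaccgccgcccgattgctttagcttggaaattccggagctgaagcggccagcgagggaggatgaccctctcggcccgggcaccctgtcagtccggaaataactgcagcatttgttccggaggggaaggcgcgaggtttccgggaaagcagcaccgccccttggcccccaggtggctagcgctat

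In these windows NFKB1 held 1 match, whose first base lay at -49 from the RefSeq start, and NFKBIA held 1 at -81. TNFAIP3 held 2 matches only a few bases apart, at -67 and -55, and BIRC3 held 2 at -199 and -135. The NFKB1 stretch also overlaps an exon of a neighbouring annotated gene, ENSG00000260651. NFKB2 had matches in 2 of its 3 windows, among them the overlapping letters GGGAATTCCC and GGAATTCCCC at -107 and -106, and NFKBIZ had 1 in each of its 2 windows. No exact match was found in the windows of RELA, ICAM1 or TRAF1, and near matches were not counted. The ICAM1 stretch holds tggaaattcc, which departs from the consensus only in its first base. In all, 8 of 16 windows, from 6 members, held the consensus, which 11.3% of 35116 RefSeq promoters of this length hold. The core of the hypoxia response element, searched as ACGTG or GCGTG on both strands, lay in 9 windows of 8 members and in 48.4% of all promoters. A match is a string of letters and not a measured binding site.

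Across the 8 groups most members had their highest mean in the same group. Immortalized cells at atmospheric oxygen had the highest mean of all groups for 8 of 10 genes, the exceptions being RELA, highest in primary cells at 3% oxygen, and ICAM1, highest in metastasizing cells at 3% oxygen. RELB counts among the 8 with a mean of 3.61 TPM, beside 3.57 TPM in transformed cells at 3% oxygen, and its replicates disagreed. For NFKBIZ and TNFAIP3 the lower immortalized library, at 53.1 and 51.6 TPM, lay below a metastasizing library at 3% oxygen, at 58.8 and 63.7 TPM. The share of all genes that peak in this group was not counted. The highest group mean exceeded the lowest by 1.42-fold for RELA, 2.34-fold for NFKB1, 5.98-fold for NFKBIA and 10.7-fold for TNFAIP3. RELA was therefore the flattest of the members on the TPM scale.

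**Figure D1:**
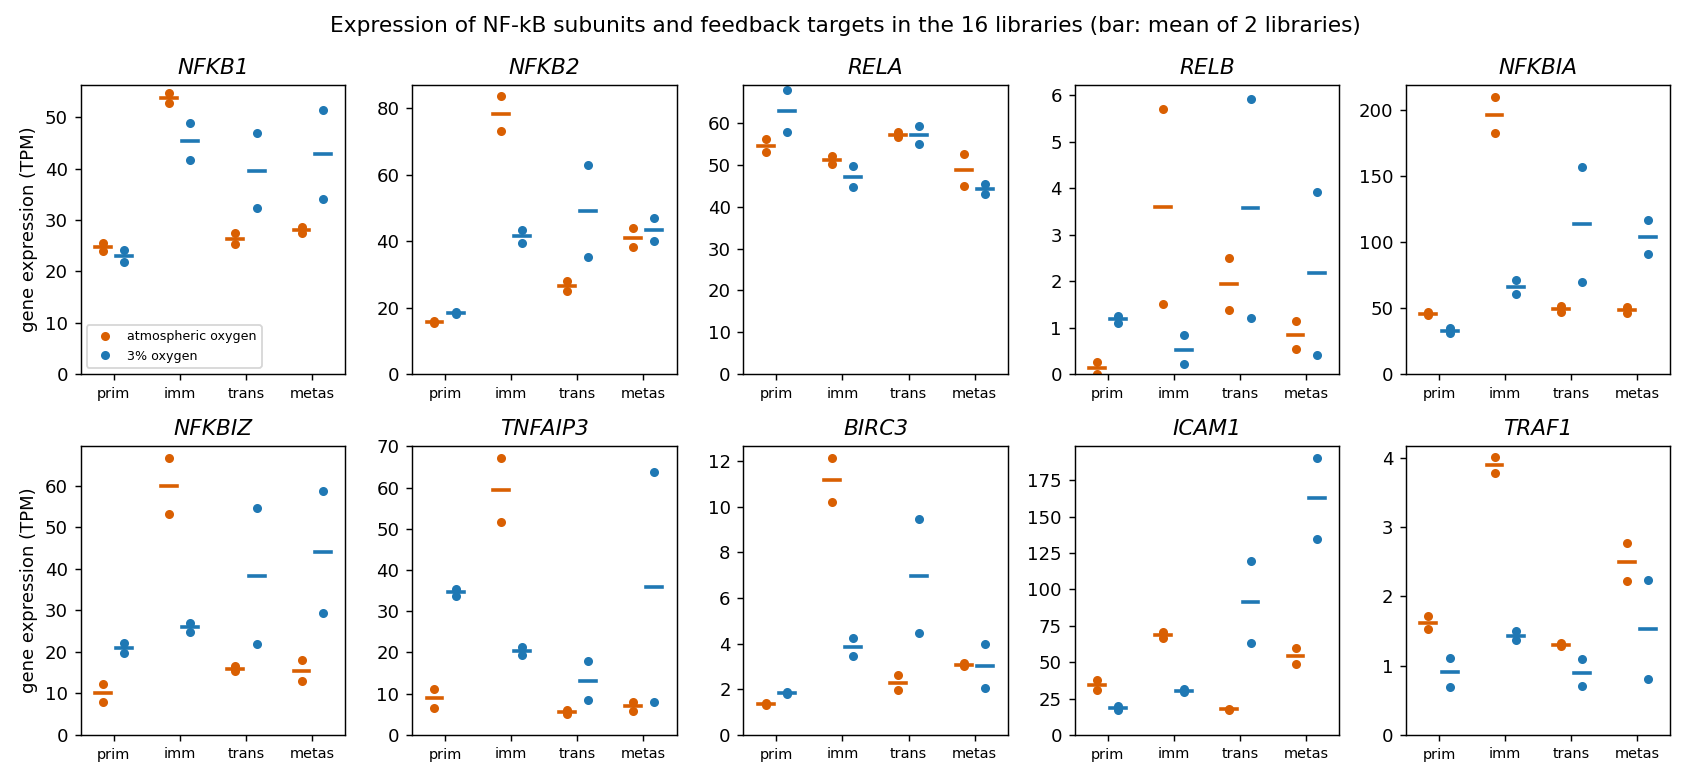
Each panel plots the level of a gene in TPM (y axis, from 0) in the 4 stages (x axis), with a point for each library and a bar for the mean of 2 libraries, in orange at atmospheric and in blue at 3% oxygen. The orange bar of the immortalized stage is the highest for most genes, RELA is nearly level, and ICAM1 is highest at 3% oxygen in metastasizing cells, at 190.2 and 135.1 TPM.

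The same 16 libraries entered 13 comparisons: 4 of oxygen within a stage, 6 between neighbouring stages and 3 between the oxygen responses of neighbouring stages. Calls needed a change beyond 2-fold and an adjusted p under 0.01 (limma, Benjamini-Hochberg over all genes tested). The comparisons share libraries, the immortalized group at atmospheric oxygen above all, so they are not separate pieces of evidence. With 2 against 2 libraries an exact permutation test of a single gene could not reach the threshold, and the tests borrow the spread from all genes.

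The first question was how the stages differ. From primary to immortalized cells at atmospheric oxygen, 5 members rose and none fell, where 12.2% of all genes were called in either direction, and the median log2 fold change was 2.19 over the members and -0.09 over all genes. From immortalized to transformed cells at atmospheric oxygen, 8 members fell and none rose, against 24.3% of all genes called, with a median of -1.71 over the members and 0.22 over all genes. The count of 8 was 4 without immortalized replicate a, 4 without transformed replicate a and 5 without transformed replicate b, and 7 without immortalized replicate b. From transformed to metastasizing cells only ICAM1 was called, against 4.12% of all genes.

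At 3% oxygen the same steps moved fewer members past the thresholds. NFKB2 rose from primary to immortalized cells, where 9.23% of all genes were called. ICAM1 rose from immortalized to transformed cells, where 16.3% of all genes were called. No member was called from transformed to metastasizing cells, against 5.92% of all genes, but 1 was when a library at 3% oxygen was left out: TNFAIP3 at 2.33 without metastasizing replicate b, BIRC3 at -1.55 without transformed replicate a and ICAM1 at 1.34 without transformed replicate b. The counts at the 2 oxygen levels were not compared by a test, although the differences of the oxygen response given further on test the same contrast for each gene.

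**Figure D2:**
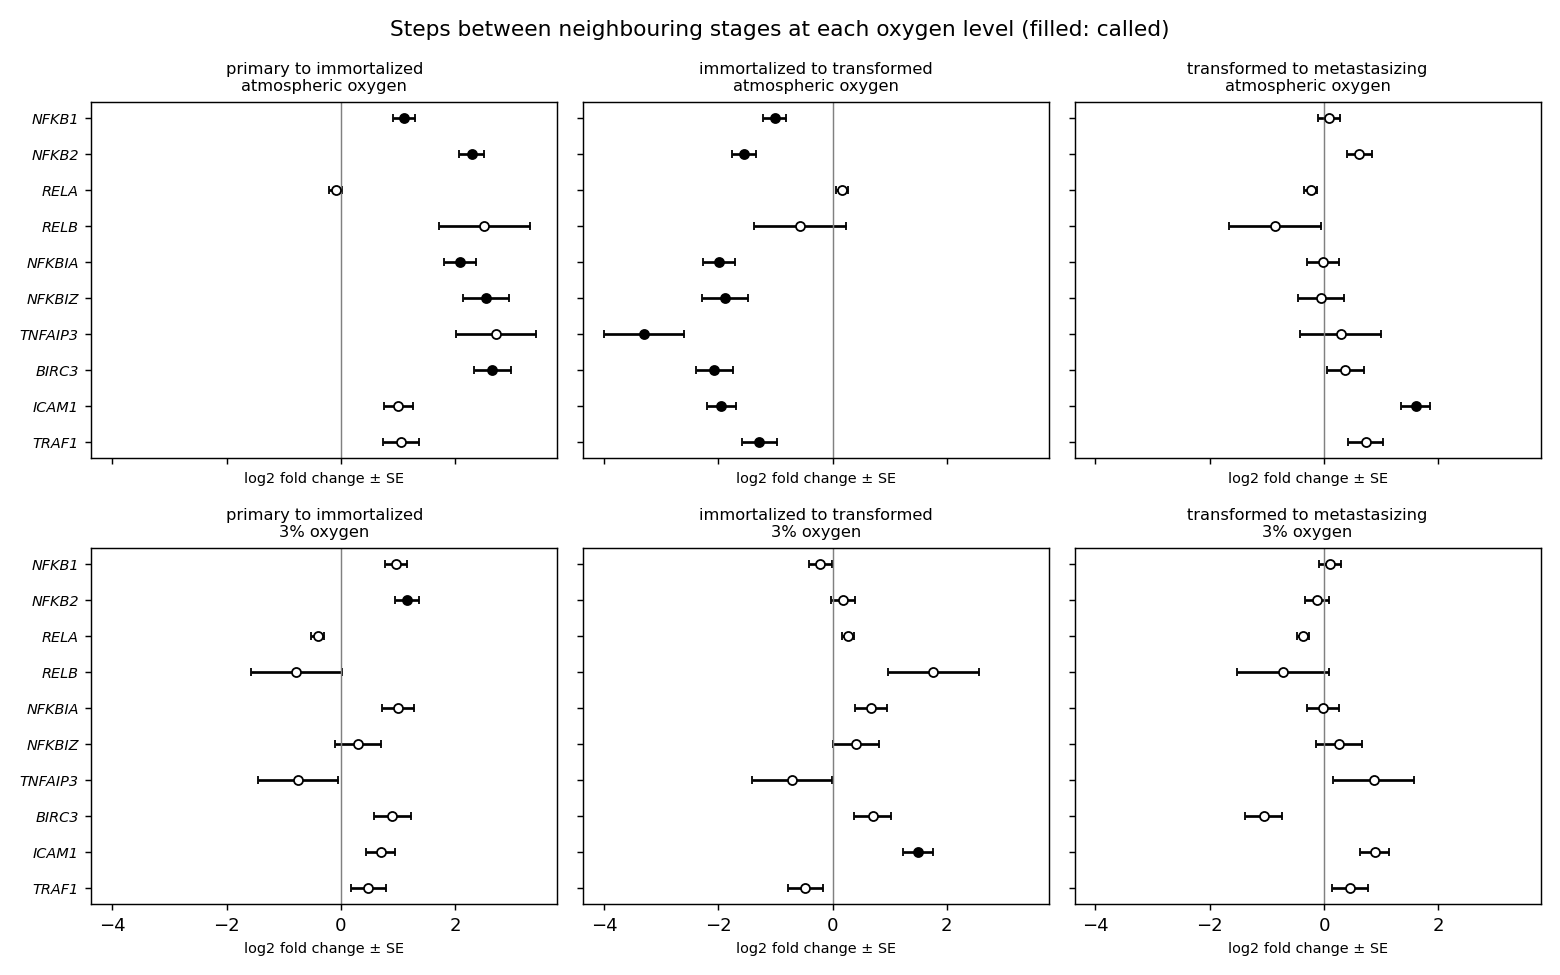
Points give the log2 fold change of each member (x axis, later minus earlier stage) with bars of 1 SE, in the 3 steps at atmospheric oxygen (top) and at 3% oxygen (bottom), filled where called. The top row shows 5 filled points to the right in the first step and 8 to the left in the second, while the bottom row has 1, 1 and 0.

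The second question was how each stage answered low oxygen. In primary cells no member was called, against 5.3% of all genes, at an adjusted p of 0.031 or more by limma with Benjamini-Hochberg adjustment. In immortalized cells 3 members fell (NFKBIA, ICAM1 and BIRC3), against 4.91% of all genes called, and all 10 had a negative log2 fold change. RELB is among the 10 and passed the filter there only through the atmospheric group, which favoured its sign in advance. In transformed cells 2 rose (ICAM1 and BIRC3), against 7.48% of all genes called. In metastasizing cells ICAM1 rose, against 7.66% of all genes called.

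The libraries at the 2 oxygen levels did not overlap for 10 of 10 members in immortalized cells, where 4.91% of all genes were called and 72.8% did not overlap. For the 4 stages in order, the members' median log2 fold change with low oxygen was 0.21, -1.19, 0.95 and 0.60, beside 0.08, 0.11, 0.01 and -0.13 over all genes. Rescaling the libraries brought the median of all genes to between -0.02 and 0.03 in the 13 comparisons and left the immortalized median of the members at -1.30. In immortalized cells, no member was called once any 1 of the 4 libraries was left out.

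**Figure D3:**
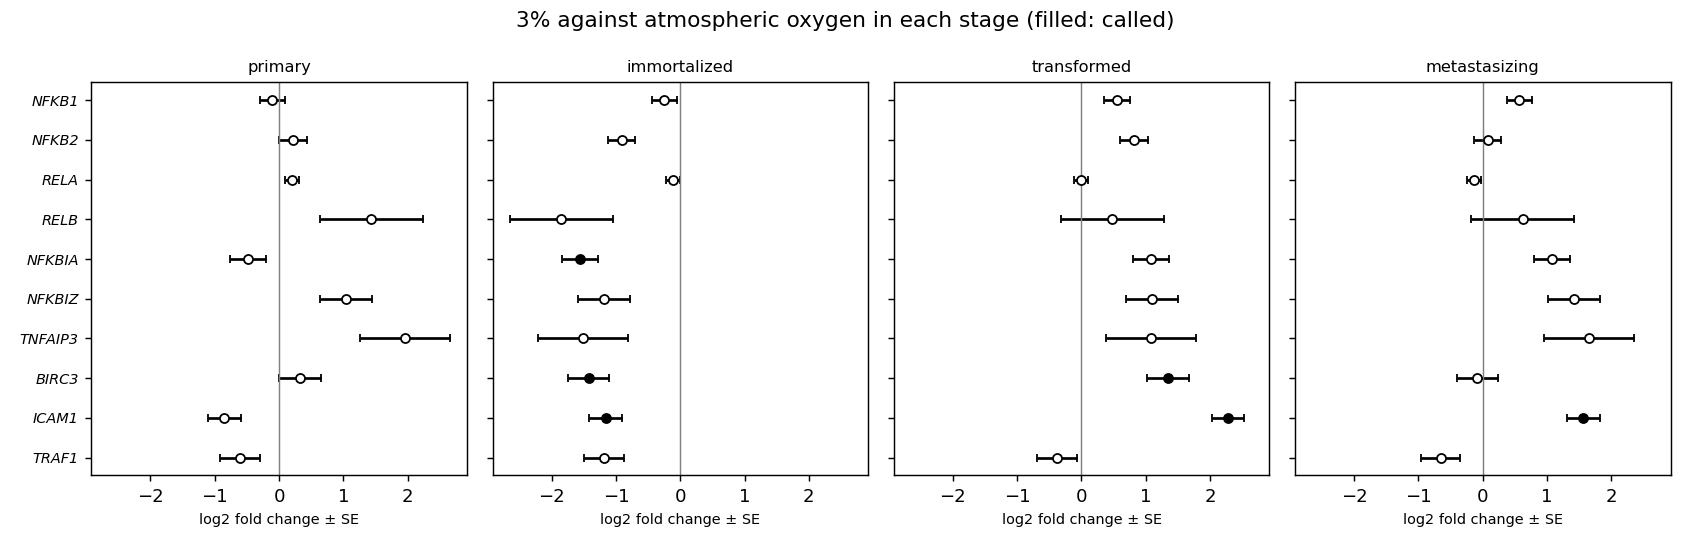
Points give the log2 fold change of each member (x axis, 3% minus atmospheric oxygen) with bars of 1 SE, in a panel for each stage, filled where called. In immortalized cells all 10 points lie left of 0 and 3 are filled, and in transformed cells 8 lie right of 0 and 2 are filled.

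The oxygen responses of neighbouring stages were then compared directly. Between immortalized and transformed cells the response differed for 4 members (ICAM1, BIRC3, NFKBIA and NFKB2), against 12% of all genes called, and all 10 differences were positive, that is, toward higher expression at low oxygen in transformed cells. RELB, whose values cannot be read as message levels, is among the 10. NFKBIZ had a difference of 2.28 (SE 0.57, adjusted p = 0.011, limma), narrowly missing the p threshold. This difference was called with a filter of 5 TPM, after median-ratio rescaling and with the replicate block (adjusted p = 0.0099, 0.0077 and 0.0061, limma). It was not called with other pseudocounts, without a filter or in the fit of only the groups compared. Between primary and immortalized cells no difference was called, against 1.86% of all genes, although all 10, RELB included, were negative. Between transformed and metastasizing cells none was called, against 8.47% of all genes.

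NFKB1 (chr4:103422487-103538459, plus strand, GRCh37) encodes p105, the precursor of the p50 subunit. At atmospheric oxygen its level was 24.0 and 25.5 TPM in primary, 54.6 and 52.8 TPM in immortalized, 25.4 and 27.4 TPM in transformed and 27.5 and 28.5 TPM in metastasizing cells. The values at 3% oxygen were 24.1 and 21.8, 48.8 and 41.7, 32.3 and 46.9, and 51.3 and 34.2 TPM in the same order. The immortalized libraries were the highest at atmospheric oxygen and did not overlap with their neighbours, while at 3% oxygen the immortalized, transformed and metastasizing ranges overlapped. NFKB1 rose by a log2 fold change of 1.10 (SE 0.20, adjusted p = 0.0012, limma) into the immortalized stage and fell by 1.01 (SE 0.20, adjusted p = 0.0011, limma) into the transformed stage. Both calls were lost without immortalized replicate a, the first also without primary replicate a and the second also without transformed replicate a. At 3% oxygen the first step had a log2 fold change of 0.96 (SE 0.20, adjusted p = 0.0038, limma), just under 2-fold.

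NFKB2 (chr10:104153867-104162281, plus strand) encodes p100, which is processed to p52 in the alternative branch of the pathway. At atmospheric oxygen it stood at 15.2 and 16.1 TPM in primary, 83.5 and 73.0 TPM in immortalized, 27.9 and 25.1 TPM in transformed and 43.9 and 38.1 TPM in metastasizing cells. At 3% oxygen the values were 18.0 and 18.6, 43.4 and 39.4, 35.2 and 62.8, and 46.8 and 39.9 TPM. The primary libraries were the lowest at both oxygen levels, and no library of another group reached those of the immortalized stage at atmospheric oxygen. NFKB2 rose into the immortalized stage by a log2 fold change of 2.28 (SE 0.21, adjusted p = 1.6e-05, limma) at atmospheric and of 1.16 (SE 0.21, adjusted p = 0.0021, limma) at 3% oxygen, and at atmospheric oxygen it fell by 1.54 (SE 0.21, adjusted p = 0.0001, limma) into the transformed stage. The rise at 3% oxygen was lost without any 1 of its 4 libraries.

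The response of NFKB2 to low oxygen was -0.91 (SE 0.21, adjusted p = 0.0098, limma) on the log2 scale in immortalized cells, short of 2-fold, and 0.82 (SE 0.21, adjusted p = 0.013, limma) in transformed cells. Without transformed replicate a at 3% oxygen the latter was 1.23 and called (adjusted p = 0.00056, limma), and without replicate b it was 0.40. The difference between these stages was 1.73 (SE 0.30, adjusted p = 0.0016, limma). A large part of the gene's TPM came from transcripts annotated as retained introns, 54.4% and 22.3% in the immortalized libraries at atmospheric oxygen, 59.8% and 60.1% in those at 3% oxygen and 24.3% and 14.9% in primary cells at atmospheric oxygen. In transformed cells the shares overlapped between the oxygen levels, at 31.4% and 38.4% at atmospheric and 52.3% and 36.7% at 3% oxygen. With protein-coding transcripts alone, an alternative added after seeing the data, the rise into the immortalized stage at atmospheric oxygen was 1.89 (SE 0.40, adjusted p = 0.0034, limma). The step into the transformed stage was then -1.42 (SE 0.40, adjusted p = 0.01009, limma), the step at 3% oxygen 0.65 (SE 0.40, adjusted p = 0.25, limma) and the difference of the oxygen response 2.03 (SE 0.56, adjusted p = 0.018, limma), so that these 3 calls were lost, the first and the last at changes close to or beyond those with all transcripts.

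RELA (chr11:65421070-65430561, minus strand) encodes p65, the main activating subunit. Its 16 libraries ranged from 43.0 to 67.9 TPM around a median of 52.8 TPM. At atmospheric oxygen the values were 53.1 and 56.2 in primary, 50.2 and 52.1 in immortalized, 58.0 and 56.6 in transformed and 52.6 and 44.9 TPM in metastasizing cells. Low oxygen gave 67.9 and 57.8, 49.6 and 44.6, 54.9 and 59.3, and 45.4 and 43.0 TPM, which overlapped the values at atmospheric oxygen in the transformed and metastasizing stages and lay above them in the primary and below them in the immortalized stage. RELA was not called in any of the 13 comparisons. The log2 fold change nearest to the threshold for p was -0.41 (SE 0.11, adjusted p = 0.016, limma) from primary to immortalized cells at 3% oxygen.

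RELB (chr19:45504719-45541450, plus strand) encodes a subunit that pairs with p52. It was barely detected, with a median of 1.17 TPM and a highest library of 5.93 TPM, and it was listed at 0 in a primary library. Its replicates disagreed, at 1.50 and 5.71 TPM in immortalized cells at atmospheric oxygen and 1.21 and 5.93 TPM in transformed cells at 3% oxygen. The full-length transcript ENST00000221452 did not exceed 1.7e-05 TPM in any library, so the sum rested on the shorter coding transcript ENST00000505236 and on retained-intron transcripts. RELB was not called in any comparison, and its values cannot be read as levels of the RelB message.

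**Figure D4:**
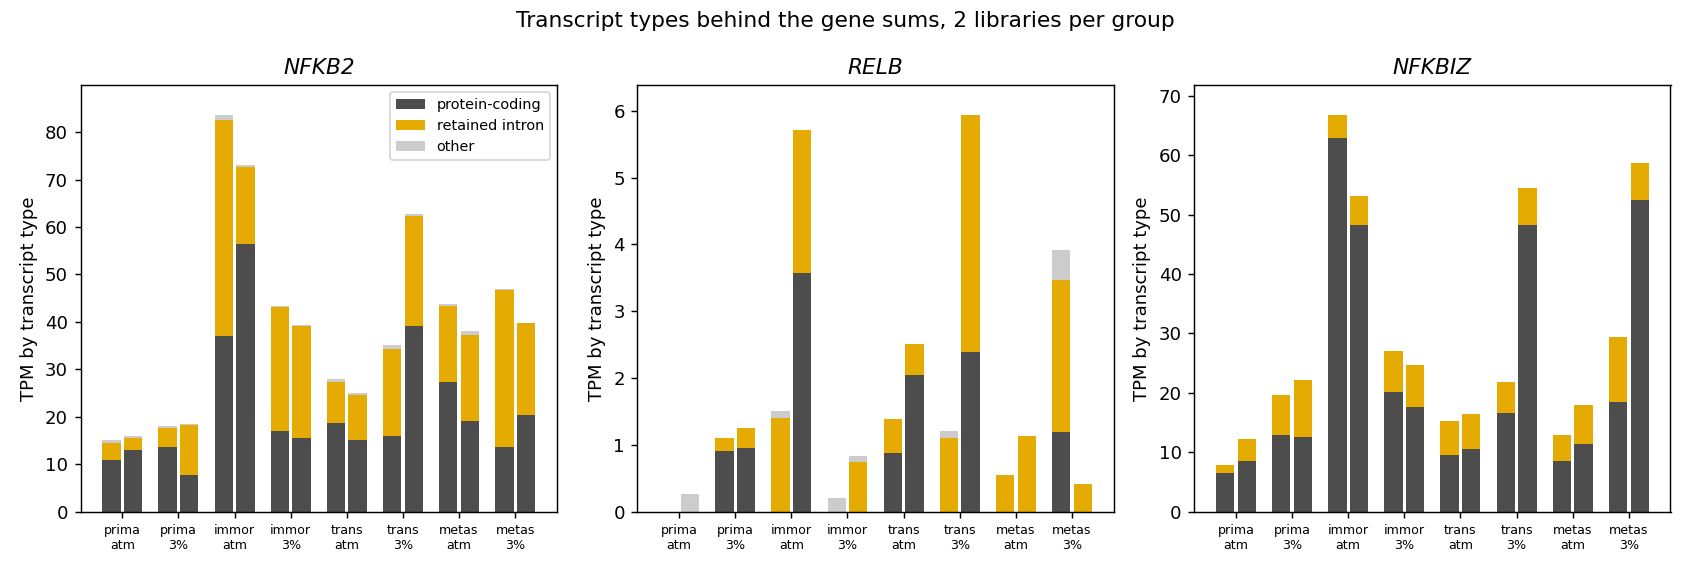
Bars give TPM (y axis) for each library, grouped by stage and oxygen level, and split into transcripts annotated as protein-coding, retained intron and other, for NFKB2, RELB and NFKBIZ. NFKB2 libraries carry large retained-intron parts that differ between replicates, and the RELB bars do not exceed 5.93 TPM.

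NFKBIA (chr14:35870285-35873955, minus strand) encodes IkB-alpha, the inhibitor that NF-kB itself induces. At atmospheric oxygen it was measured at 44.8 and 46.8 TPM in primary, 210.4 and 182.6 TPM in immortalized, 51.5 and 47.3 TPM in transformed and 46.6 and 50.6 TPM in metastasizing cells. In hypoxic cells the same stages gave 31.1 and 34.6, 71.1 and 61.1, 69.7 and 157.3, and 91.4 and 117.1 TPM. The immortalized stage was the high one at atmospheric oxygen by a wide margin, and at 3% oxygen the metastasizing libraries and transformed replicate b stood above it.

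NFKBIA rose by a log2 fold change of 2.09 (SE 0.28, adjusted p = 0.0002, limma) into the immortalized stage and fell by 1.98 (SE 0.28, adjusted p = 0.00013, limma) into the transformed stage at atmospheric oxygen. Low oxygen lowered it by 1.57 (SE 0.28, adjusted p = 0.0025, limma) on the log2 scale in immortalized cells. In transformed cells the log2 fold change with low oxygen was 1.08 (SE 0.28, adjusted p = 0.013, limma), and in metastasizing cells also 1.08 (SE 0.28, adjusted p = 0.015, limma). The difference between the immortalized and transformed responses was 2.64 (SE 0.40, adjusted p = 0.00069, limma), and it was called in each of the 15 alternatives planned for it. The transformed response depended on the plates: without replicate a at 3% oxygen it was 1.66 and called, and without replicate b it was 0.50. In metastasizing cells the same omissions gave 1.26 and 0.91, neither called.

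NFKBIZ (chr3:101546835-101579866, plus strand) encodes IkB-zeta, a nuclear member of the IkB family that acts on secondary target genes. At atmospheric oxygen it was at 7.93 and 12.3 TPM in primary, 66.7 and 53.1 TPM in immortalized, 15.3 and 16.5 TPM in transformed and 12.9 and 18.0 TPM in metastasizing cells. Under 3% oxygen the values were, in the same order, 19.7 and 22.2, 27.0 and 24.7, 21.8 and 54.5, and 29.4 and 58.8 TPM. The immortalized libraries were far above the others at atmospheric oxygen, and at 3% oxygen replicate b of the transformed and of the metastasizing stage lay within their range. NFKBIZ rose by a log2 fold change of 2.53 (SE 0.40, adjusted p = 0.00061, limma) into the immortalized stage at atmospheric oxygen and fell after it by 1.87 (SE 0.40, adjusted p = 0.0022, limma), a fall that was lost without immortalized replicate a or either transformed library. At atmospheric oxygen, retained-intron transcripts held 17.1% and 30.5% of its TPM in primary, 5.8% and 9.1% in immortalized and 38.1% and 36.0% in transformed cells. The shares were 25.6% and 28.5% in immortalized cells at 3% oxygen. With protein-coding transcripts alone, the alternative added after seeing the data, the rise was 2.80 (SE 0.48, adjusted p = 0.0010, limma). The fall was then 2.40 (SE 0.48, adjusted p = 0.0014, limma). The oxygen response of NFKBIZ was not called in any stage. In transformed cells the log2 fold change was 1.10 (SE 0.40, adjusted p = 0.055, limma), and it was 1.75 and called (adjusted p = 0.0083, limma) without replicate a at 3% oxygen and 0.45 without replicate b. In metastasizing cells the log2 fold change was 1.42 (SE 0.40, adjusted p = 0.023, limma), and it was 1.91 without replicate a at 3% oxygen and 0.93 without replicate b.

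TNFAIP3 (chr6:138188351-138204451, plus strand) encodes A20, a ubiquitin-editing enzyme that ends the signal from TNF and interleukin 1 receptors. At atmospheric oxygen it was at 6.49 and 11.2 TPM in primary, 67.1 and 51.6 TPM in immortalized, 5.16 and 5.99 TPM in transformed and 5.90 and 8.02 TPM in metastasizing cells. Low-oxygen values were 35.5 and 33.7, 19.3 and 21.4, 8.38 and 17.8, and 63.7 and 7.90 TPM. Immortalized cells were far above the other stages at atmospheric oxygen, while at 3% oxygen the primary libraries stood above the immortalized ones and the metastasizing plates disagreed. TNFAIP3 fell by a log2 fold change of 3.29 (SE 0.70, adjusted p = 0.0021, limma) from immortalized to transformed cells, and this call was lost without immortalized replicate a or either transformed library.

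In primary cells the 2 oxygen levels of TNFAIP3 did not overlap, as for 67.7% of all genes, and the log2 fold change was 1.96 (SE 0.70, adjusted p = 0.061, limma). The response in metastasizing cells depended on the plate. Its log2 fold change was 1.65 (SE 0.70, adjusted p = 0.10, limma) with both, 3.12 (adjusted p = 0.00032, limma) without replicate b and 0.19 without replicate a. In the step into the immortalized stage, 2.71 (SE 0.70, adjusted p = 0.011, limma), the p narrowly missed its threshold.

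BIRC3 (chr11:102188215-102210134, plus strand) encodes cIAP2, an inhibitor of apoptosis and ubiquitin ligase at the TNF receptor. It was low throughout. At atmospheric oxygen it was at 1.40 and 1.31 TPM in primary, 12.1 and 10.2 TPM in immortalized, 2.62 and 1.97 TPM in transformed and 3.03 and 3.14 TPM in metastasizing cells. Its 3% oxygen values were 1.79 and 1.86, 4.25 and 3.45, 4.49 and 9.45, and 3.97 and 2.07 TPM. The immortalized libraries at atmospheric oxygen were above all others. BIRC3 rose by a log2 fold change of 2.65 (SE 0.32, adjusted p = 1e-04, limma) into that stage and fell by 2.07 (SE 0.32, adjusted p = 0.00026, limma) after it.

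With low oxygen BIRC3 fell by 1.43 (SE 0.32, adjusted p = 0.0082, limma) on the log2 scale in immortalized cells and rose by 1.34 (SE 0.32, adjusted p = 0.0085, limma) in transformed cells. The difference between these responses was 2.77 (SE 0.46, adjusted p = 0.0012, limma). In metastasizing cells the log2 fold change was -0.08 (SE 0.32, adjusted p = 0.88, limma), and its sign turned on the plate, at -0.48 without replicate a and 0.32 without replicate b at 3% oxygen, neither called. Both oxygen calls lie close to the threshold: that in transformed cells was lost without replicate b at 3% oxygen, where the value was 0.84, and without either library at atmospheric oxygen.

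ICAM1 (chr19:10381769-10397291, plus strand) encodes an adhesion molecule that binds leukocyte integrins. At atmospheric oxygen it was at 37.7 and 30.5 TPM in primary, 66.7 and 70.4 TPM in immortalized, 17.9 and 17.1 TPM in transformed and 59.4 and 48.9 TPM in metastasizing cells. With 3% oxygen the plates gave 20.2 and 17.1, 31.5 and 29.4, 63.0 and 119.3, and 190.2 and 135.1 TPM. Low oxygen went with lower values in the first 2 stages and with higher values in the last 2, with no overlap between oxygen levels in any stage. Over all genes, 67.7%, 72.8%, 72.5% and 58.7% did not overlap either, in the order of the stages.

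The log2 fold change of ICAM1 with low oxygen was -0.85 (SE 0.26, adjusted p = 0.031, limma) in primary cells. It fell by 1.16 (SE 0.26, adjusted p = 0.0072, limma) in immortalized cells and rose by 2.28 (SE 0.26, adjusted p = 0.00012, limma) in transformed and by 1.56 (SE 0.26, adjusted p = 0.0014, limma) in metastasizing cells. The difference between transformed and immortalized cells was 3.44 (SE 0.36, adjusted p = 9.6e-05, limma), the largest of the 10 members in that comparison. The rise in transformed cells was called in each of 11 alternatives, and that in metastasizing cells was lost without replicate b at atmospheric oxygen and was 1.32 and 1.81 without replicate a or b at 3% oxygen.

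Between stages ICAM1 fell by 1.94 (SE 0.26, adjusted p = 7.4e-05, limma) on the log2 scale into the transformed stage and rose by 1.60 (SE 0.26, adjusted p = 0.0017, limma) into the metastasizing stage at atmospheric oxygen. At 3% oxygen it rose by 1.49 (SE 0.26, adjusted p = 0.00078, limma) into the transformed stage. The direction of the step into the transformed stage thus differed between the oxygen levels, which is the difference of 3.44 tested above. The rise into the metastasizing stage was lost without any 1 of its 4 libraries.

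TRAF1 (chr9:123664671-123691451, minus strand) encodes an adaptor of TNF receptor signaling. It was at 1.72 and 1.52 TPM in primary, 4.01 and 3.78 TPM in immortalized, 1.28 and 1.33 TPM in transformed and 2.77 and 2.23 TPM in metastasizing cells at atmospheric oxygen. At 3% oxygen it was at 0.69 and 1.11, 1.50 and 1.37, 0.71 and 1.09, and 2.24 and 0.81 TPM. All 4 stages had a lower mean at 3% than at atmospheric oxygen. TRAF1 fell by a log2 fold change of 1.28 (SE 0.31, adjusted p = 0.0043, limma) from immortalized to transformed cells, a call lost without any 1 of its 4 libraries. Its log2 fold change with low oxygen in immortalized cells was -1.19 (SE 0.31, adjusted p = 0.016, limma). In metastasizing cells it was -0.65 (SE 0.31, adjusted p = 0.13, limma) with both plates, -1.18 and called (adjusted p = 0.0073, limma) without replicate a at 3% oxygen and -0.12 without replicate b.

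Lists of other genes of the pathway, chosen with earlier results of these data known, were read in the same fits, so their counts are a description. Some listed genes passed the filter on low values only through the group where they were higher, which favoured their sign in advance. Of 25 further known targets, 20 were tested from primary to immortalized cells at atmospheric oxygen, where 16 rose and 1 fell, against 12.2% of all genes called. This limit applies to CXCL2, CXCL3, CSF2, CXCL10 and BCL2A1 among the 16, with means of 0 to 0.24 TPM in primary cells. Into the transformed stage 1 rose and 12 fell of 20, against 24.3% of all genes. There it applies to PTGS2, CSF2 and BCL2A1, at means of 0.76, 0.14 and 0.06 TPM in transformed cells. The list's median log2 fold change was -2.78 in that step, beside 0.22 over all genes. The neutrophil chemokine CXCL8 went from a mean of 1.72 to 2989 TPM in the first step and back to 31.3 TPM in the second, and the cytokine IL6 from 8.59 to 1742 and then to 41.8 TPM.

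With low oxygen 9 of 20 targets fell in immortalized cells with none rising, against 4.91% of all genes called, and with 1 library left out 3 or 4 fell. In transformed cells 4 of 19 rose with none falling, against 7.48% of all genes, and the count was 8 without replicate a at 3% oxygen, 2 with 1 falling without replicate b, and 1 without either library at atmospheric oxygen. In metastasizing cells 3 rose and 3 fell of 20, against 7.66% of all genes. Without replicate a at 3% oxygen 4 rose and 0 fell, without replicate b 4 rose and 4 fell, and without either library at atmospheric oxygen 2 rose and 0 fell. In primary cells 1 of 15 rose, against 5.3% of all genes. Among the rises in transformed cells, PTGS2, at 0.76 TPM at atmospheric oxygen, passed the filter only through the 3% group. In metastasizing cells the rise of BCL2A1, from 0.44 TPM, and the fall of CXCL10, to 0.04 TPM, were likewise tested only through the higher group. The median log2 fold change of the list was -1.42 in immortalized and 1.37 in transformed cells, beside 0.11 and 0.01 over all genes. CXCL8 had a log2 fold change of -5.10 (SE 0.75) in immortalized and 4.02 (SE 0.75) in transformed cells, and the chemokine CXCL2 of -4.24 (SE 0.55) and 2.93 (SE 0.55). The difference of response between these stages was called for 10 of 20 targets, all positive, against 12% of all genes, and for 6 to 14 with 1 library left out, the lowest count without immortalized replicate a or transformed replicate b at atmospheric oxygen and the highest without transformed replicate a at 3% oxygen. The calls of CXCL8 and CXCL2 in transformed cells were lost without either library at atmospheric oxygen, and that of CXCL2 also without replicate b at 3% oxygen. In immortalized cells that of CXCL8 was lost without replicate a at atmospheric or replicate b at 3% oxygen.

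Among 10 ligands, 4 were tested in immortalized cells, and IL1B, which activates the pathway through the interleukin 1 receptor, changed the most. Its mean was 2.29 TPM in primary, 462.5 TPM in immortalized, 2.56 TPM in transformed and 5.88 TPM in metastasizing cells at atmospheric oxygen. At 3% oxygen it was at 1.70, 32.3, 91.7 and 431.7 TPM. With low oxygen 1 of 4 ligands fell in immortalized cells, against 4.91% of all genes called. In transformed cells 2 of 3 rose, against 7.48% of all genes. In metastasizing cells 2 of 4 rose and 1 fell, against 7.66%, the fall being that of TNFSF13B by 1.69 (SE 0.30). TNFSF13B, at 0.31 TPM at 3% oxygen, was tested there only through the atmospheric group. IL1B fell by a log2 fold change of 3.77 (SE 0.74, adjusted p = 0.0040, limma) with low oxygen in immortalized cells and rose by 4.48 (SE 0.74, adjusted p = 0.0011, limma) in transformed and by 5.80 (SE 0.74, adjusted p = 0.00032, limma) in metastasizing cells. The related IL1A rose by 2.73 (SE 0.58, adjusted p = 0.0047, limma) and by 2.60 (SE 0.58, adjusted p = 0.0077, limma) in the last 2 stages. Its means there were 0.09 and 0.30 TPM at atmospheric and 4.59 and 4.72 TPM at 3% oxygen. IL1A thus passed the filter only through the 3% groups, which favoured its sign in advance. In metastasizing cells the rise of IL1B was 6.73 without replicate a and 4.87 without replicate b at 3% oxygen, both called, and that of IL1A was 3.16 and called without replicate a and 2.03 and not called without replicate b. In immortalized cells the fall of IL1B was lost without any 1 of the 4 libraries. In transformed cells the rise of IL1B was lost without replicate a at atmospheric oxygen, and that of IL1A on leaving out any of the 4 libraries except replicate a at 3% oxygen.

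Of the 15 kinases, 14 were measured, and in immortalized cells 2 of 13 tested fell with low oxygen, against 4.91% of all genes called, namely IRAK2 at -2.05 (SE 0.38) and MAP3K8 at -2.03 (SE 0.25) on the log2 scale. MAP3K8 also fell with low oxygen in primary cells, at -1.20 (SE 0.25), the 1 call of 13 tested there, against 5.3% of all genes. From primary to immortalized cells at atmospheric oxygen, where 12.2% of all genes were called, the same 2 rose, IRAK2 by 3.34 (SE 0.38) and MAP3K8 by 1.21 (SE 0.25). Of the other subunits and IkB genes, NFKBIE, which encodes IkB-epsilon, rose by 1.77 (SE 0.28) in that step and fell by 1.26 (SE 0.28) with low oxygen in immortalized cells, and 4 of 5 genes were not called in either comparison. With low oxygen in immortalized cells the calls of IRAK2 and NFKBIE were lost without any 1 of the 4 libraries, and the rise of MAP3K8 between the stages was lost without either primary library or immortalized replicate a. Among 12 ubiquitin enzymes and negative regulators, TNIP1, a partner of A20, rose by 1.33 (SE 0.15) with low oxygen in transformed cells, where 11 were not called and 7.48% of all genes were. Of 18 receptors and adaptors, 17 were tested in transformed cells, where the innate receptors TLR4 and TLR2 rose by 2.24 (SE 0.15) and 1.08 (SE 0.25) and TLR3 fell by 2.58 (SE 0.35) with low oxygen, against 7.48% of all genes called. TLR2, at 0.27 TPM at atmospheric oxygen, and TLR3, at 0.99 TPM at 3% oxygen, passed the filter there only through their higher group. The call of TLR2 was lost without replicate a at 3% oxygen or either library at atmospheric oxygen. In metastasizing cells 1 of 17 receptors and adaptors rose and 3 fell with low oxygen, against 7.66% of all genes. Fewer fell with any 1 library left out except replicate b at 3% oxygen. The rise was lost without replicate b at atmospheric oxygen. Between stages 2 rose and 3 fell of 16 from primary to immortalized cells at atmospheric oxygen, against 12.2% of all genes, and 4 rose and 1 fell of 17 from immortalized to transformed cells at 3% oxygen, against 16.3%. With 1 library left out, the falls in the former were 0 or 1 and the rises in the latter 1 or 2.

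The members followed each other to different degrees. Over the 8 group means on the log2 scale, Pearson's r was 0.93 between NFKB2 and BIRC3 and 0.91 between NFKB1 and NFKBIA, whereas RELA had a negative r with 8 of the other 9. These points share libraries and stages and are a description. Among 13136 other genes, those most like a member over the 16 libraries were IL6 for NFKB2 (r = 0.98), CLDN1 for NFKB1 (r = 0.96), IQCD for NFKBIA (r = 0.96), CXCL1 for NFKBIZ (r = 0.94), WTAP for BIRC3 (r = 0.94), CFLAR for TNFAIP3 (r = 0.90), COX7A2L for ICAM1 (r = 0.90), TRIM16 for TRAF1 (r = 0.89), NAV2 for RELA (r = 0.82) and SLC25A25 for RELB (r = 0.76).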

How the data were processed

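RNA of 4 BJ stages at 2 oxygen levels was sequenced from duplicate plates with a stranded mRNA kit. The authors quantified transcripts with kallisto 0.42.1 against GRCh37 and deposited TPM per transcript, without read counts, so depth is unknown. Of 180253 transcripts, 151453 matched GENCODE 44 lifted to GRCh37 and held 88.2% to 90.1% of the TPM, and 28800 were not used. The stray header line was skipped.

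TPM were summed by gene and analysed as log2(TPM + 0.5) with limma 3.58.1 in R 4.3.3, in 1 trended fit of 8 groups (8 residual degrees of freedom). Genes were tested if 1 compared group averaged 1 TPM or more, and the fit was tested on simulated data. Fold changes are on this scale and understate changes of low genes. Python 3.11.15 with pandas 2.3.3 and matplotlib 3.10.9 was used for tables and figures.

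Members and gene lists were chosen with earlier results of these data known. Named genes are the members, at most 4 called genes per list and kind of comparison with the largest changes, and the closest genes by correlation. TLR2 was named after its value was seen, to complete a small count. CXCL3, CXCL10, BCL2A1 and, for low oxygen, PTGS2 were also named after their values were seen, to state limits of the counts. Alternatives were other pseudocounts, filters, rescaling, separate fits, the replicate block and leaving out libraries. The authors tested estimated counts with edgeR, which TPM do not allow.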

Additional observations from a re-analysis of the deposited data

Results flagged for a closer look

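The oxygen response of 4 members differed between the immortalized and the transformed stage by the test of the difference itself (limma, adjusted over all genes). The difference, transformed minus immortalized, was 1.73 on the log2 scale for NFKB2, 2.64 for NFKBIA, 2.77 for BIRC3 and 3.44 for ICAM1. For each of the 4 genes both libraries at 3% oxygen lay below both at atmospheric oxygen in immortalized cells and above both in transformed cells. The genes were picked by that test on the same libraries, so this separation adds no support. Over all genes, 72.8% in immortalized and 72.5% in transformed cells did not overlap, in either direction. Retained-intron transcripts held 54.4% and 22.3% of the NFKB2 TPM at atmospheric and 59.8% and 60.1% at 3% oxygen in immortalized cells, and 31.4% and 38.4% against 52.3% and 36.7% in transformed cells, where the shares overlapped. With protein-coding transcripts alone, an alternative added after seeing the data, the NFKB2 difference was 2.03 (SE 0.56, adjusted p = 0.018, limma) and no longer called. That of NFKBIZ, which narrowly missed the p threshold with all transcripts, was then 2.98 (SE 0.68, adjusted p = 0.0069, limma) and called.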

How the results depend on the processing

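Of 26 calls of a member in a comparison, 301 values under alternatives kept their direction, 251 of them still called and 50 not, and none reversed. For low oxygen in immortalized cells the 3 calls became 1 without a filter on low values, 1 with the replicate block and 5 in a fit of only the groups compared. For transformed cells the 2 calls became 1 in 5 alternatives (no filter, median-ratio rescaling, only the groups compared, the replicate block and protein-coding transcripts only). For metastasizing cells the 1 call became 2 with rescaling or with protein-coding transcripts and 0 in the fit of only the groups compared. The single call from primary to immortalized cells at 3% oxygen became 2 with rescaling and 0 with protein-coding transcripts, and that from immortalized to transformed cells at 3% oxygen became 0 in the fit of only the groups compared, where the difference between immortalized and primary responses went from 0 to 5. The causes were not tested.

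With 1 library left out, the count of called members ranged from 0 to 0 for low oxygen in immortalized, 1 to 5 in transformed and 0 to 2 in metastasizing cells. For the steps it ranged from 4 to 7 from immortalized to transformed, 0 to 0 from transformed to metastasizing at atmospheric oxygen and 0 to 0 from primary to immortalized at 3% oxygen, 1 to 2 and 0 to 1 in the later steps at 3% oxygen, and 0 to 2 for the metastasizing minus transformed difference. The lone library of a group was assumed to vary like the other groups. The letters a and b link no plates by the labels, and same-letter deviations correlated at -0.15, -0.10, -0.08 and -0.10. The crossed replicate block, added after the data were seen, gave 0 calls in primary cells, as did the replicate block. RELB and TRAF1 in all 13 comparisons and BIRC3 in 4 had no value under the filter of 5 TPM, and RELB and TRAF1 each had none in 1 comparison with a metastasizing library left out.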
